A study of Mus musculus with 13 samples.

Results

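The C-type lectin receptors described here are 10 genes, Clec4f, Clec4g, Clec1b, Mrc1, Clec10a, Clec7a, Clec12a, Clec4n, Clec4e and Clec14a, taken by symbol from the 19537 genes that had a probe set with a single gene symbol. The 10 genes had 11 of the 25194 probe sets, 1 each except Clec4g with 2. RNA levels had been measured on 13 Affymetrix arrays of liver cells from naive C57BL/6 mice of 6 to 10 weeks of age, with no other genotype or treatment in any group. Kupffer cells, the resident macrophages of the liver, and liver sinusoidal endothelial cells (LSEC) had been freshly isolated and had 3 arrays each. Hepatic stellate cells (HSC), the retinoid-storing pericytes of the liver, had been kept in DMEM with 10% fetal bovine serum, with 2 arrays after 1 day, 1 array after 7 days and 1 array after 14 days. Hepatocytes, the parenchymal cells, had been freshly isolated and had 3 arrays. All HSC groups were thus cultured and the other cells were not, so that cell type and culture cannot be told apart where HSC are compared with the rest. The labels call the arrays of a group biological replicates, except the single arrays of 7-day and 14-day HSC, but name no separate animals and no isolation steps, so that p-values measure the spread between these arrays, which may be technical.

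C-type lectins are proteins with a carbohydrate-recognition fold that in many members binds sugars in a calcium-dependent way. The receptors of this group sit in the plasma membrane, where some take up glycoproteins, such as the mannose receptor encoded by Mrc1 and the galactose-binding receptors encoded by Clec4f and Clec10a. Others signal on binding microbes, dead cells or other cells: Dectin-1 (Clec7a) and CLEC-2 (Clec1b) carry a single tyrosine motif that recruits the kinase Syk, Dectin-2 (Clec4n) and Mincle (Clec4e) work through the adaptor Fc receptor gamma chain, and Clec12a carries an inhibitory motif. In the liver, Clec4f is known as a gene of mouse Kupffer cells, Clec4g (LSECtin) as a gene of sinusoidal endothelium, and the mannose receptor clears glycoproteins from the blood at the sinusoidal wall. Clec14a belongs to another branch, the thrombomodulin-like lectins of endothelium.

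Deposited intensities, a linear measure of how brightly a probe set lit up on an array, spanned 10.6 to 28854, and array medians lay between 216.5 and 232.9. Pearson's r between arrays of one group lay between 0.9859 and 0.9957. As a gauge of what a silent gene reads, the 1033 probe sets of olfactory receptor genes had a median of 47.1 and a 95th percentile of 150.1 over all arrays. A gene was tested if it exceeded the pooled median of 224.5 on at least 2 arrays of the fit, and differences were taken on log2(intensity + 83), a scale that understates the fold of a low gene. Calls, in either direction, needed a limma p under 0.05 after Benjamini-Hochberg adjustment over all genes tested and a log2 difference of 1 or more in size. Intensities of different probe sets are not on a common scale, so levels are compared between groups for one gene and not between genes. Summed intensities of marker lists are compared between groups only, and the brightest probe sets weigh most in them. Kupffer cell markers were called higher in Kupffer cells than in each other population for 12 of 12 genes, including Slc40a1 and Cd5l, and hepatocyte markers were called lower in each other population than in hepatocytes for 10 of 10. Of 15 LSEC markers, including Cdh5 and Fcgr2b, 15 were called higher in LSEC than in hepatocytes, 13 than in 1-day HSC, and 12 were called lower in Kupffer cells than in LSEC. Of 14 stellate cell markers, 11 were called higher in 1-day HSC than in hepatocytes.

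Of the 10 lectin receptor genes, 7 were called higher in Kupffer cells than in each of the other 3 populations: Clec4f, Clec10a, Mrc1, Clec1b, Clec7a, Clec12a and Clec4n. The same held for 6.53% of the 12081 genes tested. Only Clec14a was called higher in LSEC than in each other population, against 2.35% of genes tested. By the same limma rule no member was called higher in 1-day HSC (all genes 2.59%) or in hepatocytes (all genes 6.8%) than in each other population. Among the 7, Mrc1 and Clec1b were called higher in LSEC too, relative to 1-day HSC and to hepatocytes, whereas Clec7a, Clec12a and Clec4n were called higher in 1-day HSC than in LSEC and hepatocytes. Clec4g was high in both Kupffer cells and LSEC, and Clec4e was low on all 13 arrays. Of the 10 genes, 9 passed the filter on low values and Clec4e did not. Clec4f and Clec10a passed in the 4 populations only through Kupffer cells, and Clec14a only through LSEC, so that each had to differ in some comparison.

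**Figure D1:**
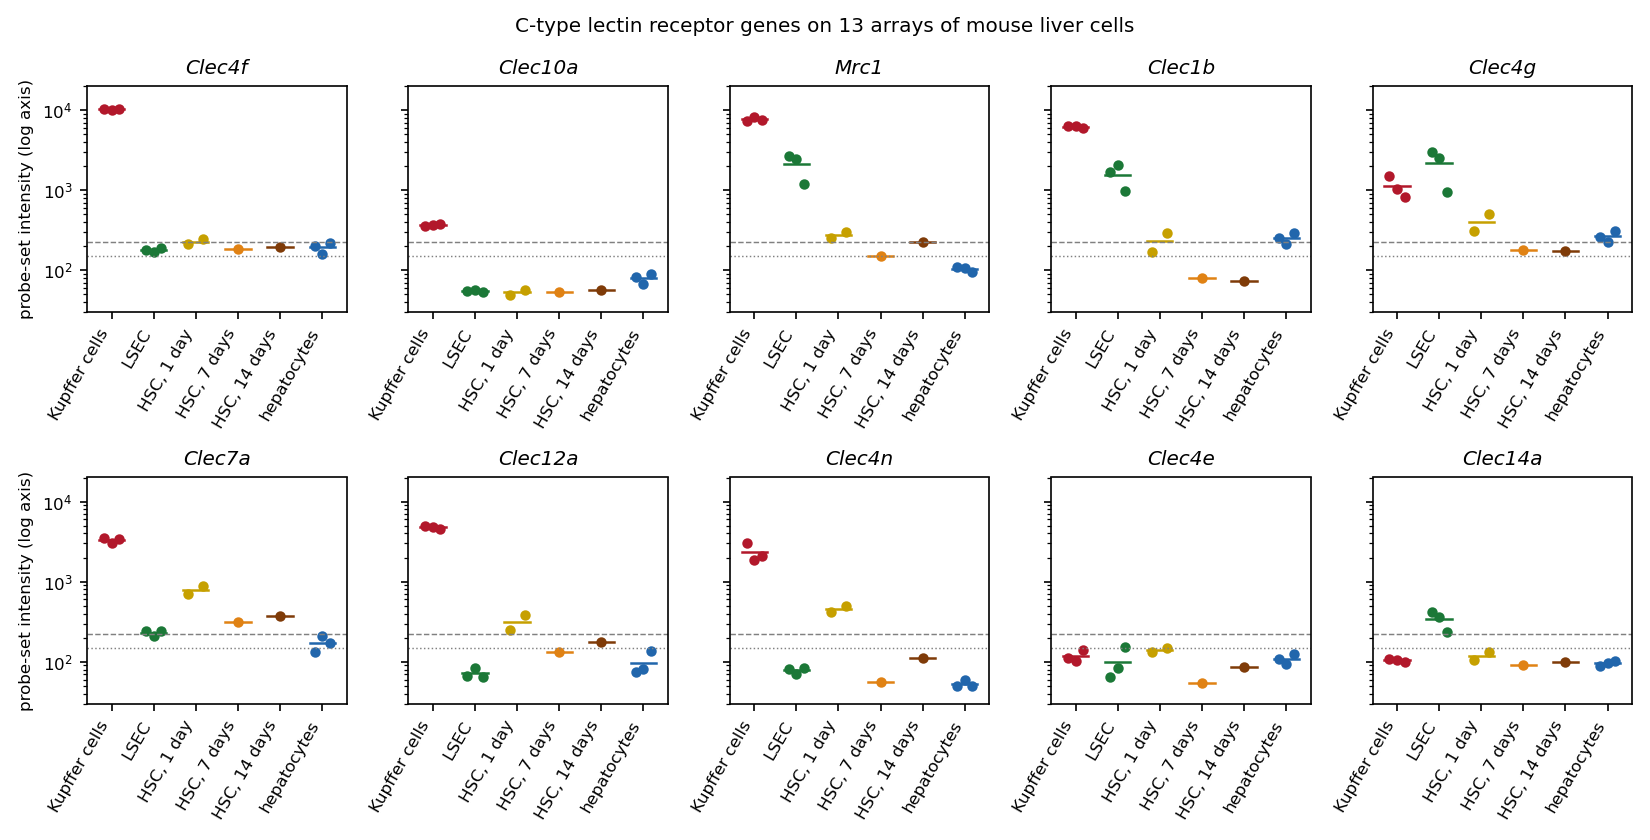
Probe-set intensity (log axis) of the 10 lectin receptor genes on each of the 13 arrays, by group, with a bar at each group mean, a dashed line at the pooled median of 224.5 and a dotted line at the olfactory receptor 95th percentile of 150.1. Kupffer cell arrays are the highest for Clec4f, Clec10a, Mrc1, Clec1b, Clec7a, Clec12a and Clec4n, LSEC arrays for Clec14a, and no group stands above the dashed line for Clec4e.

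The promoter windows of 4 of the Kupffer-high genes are shown because all 4 genes had their highest readings on the Kupffer cell arrays but ranked LSEC and HSC differently. Each is the 250 bases before an annotated start, from RefSeq on GRCm38.p6, written 5′ to 3′ on the strand of the gene, with capitals marking GAGGAA, the core bound by PU.1 and other ETS factors, or its reverse complement TTCCTC. The windows are chr6:83656117-83656366 on the minus strand for Clec4f, chr6:129397047-129397296 on the plus strand for Clec1b, chr2:14229164-14229413 on the plus strand for Mrc1 and chr6:129472786-129473035 on the minus strand for Clec7a.
Clec4f: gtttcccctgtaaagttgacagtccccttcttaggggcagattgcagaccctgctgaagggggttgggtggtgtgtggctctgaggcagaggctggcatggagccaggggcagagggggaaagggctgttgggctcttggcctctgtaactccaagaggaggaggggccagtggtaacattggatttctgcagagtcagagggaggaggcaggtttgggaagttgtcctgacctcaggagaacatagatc
Clec1b: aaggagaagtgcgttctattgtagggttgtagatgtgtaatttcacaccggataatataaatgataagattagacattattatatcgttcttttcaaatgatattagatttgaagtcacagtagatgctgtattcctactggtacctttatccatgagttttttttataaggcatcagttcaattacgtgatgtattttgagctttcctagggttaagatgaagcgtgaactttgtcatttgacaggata
Mrc1: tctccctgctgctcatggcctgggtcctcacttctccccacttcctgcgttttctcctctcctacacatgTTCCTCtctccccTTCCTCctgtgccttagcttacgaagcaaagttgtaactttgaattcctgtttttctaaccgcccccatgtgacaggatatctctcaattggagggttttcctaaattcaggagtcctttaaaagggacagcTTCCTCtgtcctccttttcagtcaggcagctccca
Clec7a: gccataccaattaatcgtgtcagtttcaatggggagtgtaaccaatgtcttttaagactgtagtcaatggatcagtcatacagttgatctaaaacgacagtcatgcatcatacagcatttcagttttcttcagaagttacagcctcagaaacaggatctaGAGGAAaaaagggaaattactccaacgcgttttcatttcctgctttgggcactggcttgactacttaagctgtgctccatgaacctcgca

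Windows were found for 8 of the 10 members. GAGGAA, searched on both strands, was in the window of 5 of the 8 (Mrc1 with 3 matches, Clec12a and Clec4e with 2, Clec7a and Clec14a with 1) and in 23.3% of all 32851 windows of the same length. Clec4f, Clec1b and Clec4g had none. The letters AGATAA, a motif of GATA family factors, were in 0 of 8 members' windows and 9.99% of all. TGANTCA (AP-1) was in 1 of 8, that of Clec12a, and 6.75% of all, and TGCTGA (the MAF factor core) was in 1 of 8, that of Clec4f, and 16.1% of all. The letters of TGCTGA and TGANTCA can overlap in TGA, but no matches of different motifs overlapped in a member's window. The window of Clec12a lies within the annotated span of the gene, and that of Clec4g overlaps it in part. A match is a description of the sequence, not of binding.

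Clec4f and Clec10a, both receptors for galactose-type sugars, were high in Kupffer cells and at a low level everywhere else. Clec4f (probe set 10545731) read 10218, 10149 and 10459 on the Kupffer cell arrays, 179.6, 169 and 189 on the LSEC arrays, 212 and 245 on the 1-day HSC arrays, 184 in 7-day HSC, 195 in 14-day HSC and 199, 159 and 222 on the hepatocyte arrays. The 3 Kupffer cell arrays stood apart from all 10 others. Among those, LSEC and later HSC readings lay below both 1-day HSC readings, and hepatocyte readings overlapped with each group. The mean was 10275 ± 163 in Kupffer cells and 179 ± 10.2 in LSEC (SD, n = 3 each), a 57.4-fold ratio and a log2 difference of 5.31 (SE 0.0905, limma adjusted p = 6.99e-13). The log2 difference was 5.06 against 1-day HSC and 5.24 against hepatocytes. LSEC, 1-day HSC and hepatocytes could not be ranked, with log2 differences of -0.25, -0.07 and 0.18 that were not called.

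Clec10a (probe set 10377782), the macrophage galactose-type lectin gene, read 354, 367 and 374 on the Kupffer cell arrays, 55.4, 56.9 and 53.7 on the LSEC arrays, 49.0 and 57.0 on the 1-day HSC arrays, 52.9 in 7-day HSC, 56.2 in 14-day HSC and 82.2, 66.8 and 89.2 on the hepatocyte arrays. All non-Kupffer arrays lay below the olfactory receptor 95th percentile, and the 3 Kupffer cell arrays lay above it. The mean was 365 ± 9.90 in Kupffer cells and 55.3 ± 1.61 in LSEC (SD, n = 3 each), a log2 difference of 1.70 (SE 0.0738, limma adjusted p = 7.86e-10), and 1.72 against 1-day HSC and 1.47 against hepatocytes. With the pooled median as the added constant, the difference from hepatocytes was 0.96 and was not called.

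Mrc1 and Clec1b shared a graded order, highest in Kupffer cells, next in LSEC and low in 1-day HSC and hepatocytes. Mrc1 (probe set 10469358), the mannose receptor gene, read 7372, 8089 and 7632 on the Kupffer cell arrays, 2652, 2476 and 1188 on the LSEC arrays, 251 and 303 on the 1-day HSC arrays, 150.4 in 7-day HSC, 228 in 14-day HSC and 109.8, 108 and 94.8 on the hepatocyte arrays. No Kupffer cell array overlapped an LSEC array, and no LSEC array overlapped an HSC or hepatocyte array. The mean was 7698 ± 363 in Kupffer cells and 2106 ± 799 in LSEC (SD, n = 3 each), a log2 difference of 1.91 (SE 0.220, limma adjusted p = 8.14e-06). LSEC in turn were higher than 1-day HSC by a log2 difference of 2.53 (SE 0.246, limma adjusted p = 4.74e-06) and higher than hepatocytes by 3.47. Hepatocyte readings were below the olfactory receptor 95th percentile on all 3 arrays. 1-day HSC read above hepatocytes without overlap, at a log2 difference of 0.94 (SE 0.246, limma adjusted p = 0.00468) that was under the minimum of 1.

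Clec1b (probe set 10542172) encodes CLEC-2, best known as the platelet receptor for podoplanin. It read 6317, 6270.0 and 5898 on the Kupffer cell arrays, 1689, 2037 and 978 on the LSEC arrays, 171 and 293 on the 1-day HSC arrays, 79.3 in 7-day HSC, 74.0 in 14-day HSC and 255, 215 and 295 on the hepatocyte arrays. Kupffer cells, LSEC and the rest formed separate ranges, and the ranges of 1-day HSC and hepatocytes overlapped. The mean was 6162 ± 229 in Kupffer cells and 1568 ± 539.9 in LSEC (SD, n = 3 each), a log2 difference of 1.98 (SE 0.216, limma adjusted p = 5.18e-06). LSEC were higher on the log2 scale than 1-day HSC by 2.36 and higher than hepatocytes by 2.24, both called. The log2 difference of 1-day HSC from hepatocytes was -0.12, with a 95% interval of -0.65 to 0.41. Of the 5 tested platelet markers, 1 was called higher in Kupffer cells than in LSEC, 1 than in 1-day HSC and 2 than in hepatocytes, and the summed intensity of the 6 measured was 1499.7 to 2952 on the Kupffer cell arrays and 1199.8 to 1221 on the LSEC arrays. The platelet chemokine gene Ppbp, chosen after its values were seen, read 1396, 269 and 308 on the Kupffer cell arrays and 102, 98.2 and 88.4 on the LSEC arrays. The part of platelets in the Clec1b reading was not tested.

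Clec4g, which encodes the sinusoidal lectin LSECtin, was high in LSEC and in Kupffer cells, and its order between these populations was not settled. It read 1504, 1039 and 812 on the Kupffer cell arrays, 3029, 2503 and 944 on the LSEC arrays, 306 and 506 on the 1-day HSC arrays, 178 in 7-day HSC, 175 in 14-day HSC and 257, 226 and 314 on the hepatocyte arrays. LSEC replicate 3 lay inside the Kupffer cell range, and the other two LSEC arrays lay above it. The mean was 1118 ± 353 in Kupffer cells and 2159 ± 1085 in LSEC (SD, n = 3 each), a log2 difference of -0.79 (SE 0.346, limma adjusted p = 0.0634) with an unadjusted 95% interval of -1.55 to -0.04. Without LSEC replicate 3 the log2 difference was -1.28, and without Kupffer replicate 1 it was -1.01, both called lower in Kupffer cells.

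Against the remaining populations Clec4g was called higher in both. On the log2 scale, Kupffer cells exceeded 1-day HSC by 1.29 (SE 0.387, limma adjusted p = 0.0109) and hepatocytes by 1.75 (SE 0.346, limma adjusted p = 0.000614), and LSEC exceeded 1-day HSC by 2.08 and hepatocytes by 2.55. The Kupffer cell log2 difference from 1-day HSC was 0.99 without 1-day HSC replicate 1 and was then not called. These values come from probe set 10576774. A second probe set of the gene, 10576772, read between 106 and 146 on all 13 arrays and did not follow the first. With the mean of both probe sets, the Kupffer cell log2 difference was 0.67 from 1-day HSC and 0.87 from hepatocytes, neither called.

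Clec14a (probe set 10400510), an endothelial receptor that binds multimerin-2, was the member with its highest readings in LSEC alone. It read 108, 105 and 99.3 on the Kupffer cell arrays, 417, 363 and 238 on the LSEC arrays, 105 and 134 on the 1-day HSC arrays, 92.3 in 7-day HSC, 98.4 in 14-day HSC and 89.0, 96.8 and 103 on the hepatocyte arrays. The 3 LSEC arrays lay above all others, and the others were under the olfactory receptor 95th percentile. The mean was 104 ± 4.42 in Kupffer cells and 339 ± 91.8 in LSEC (SD, n = 3 each), a log2 difference of -1.15 (SE 0.134, limma adjusted p = 9.06e-06). LSEC exceeded, on the log2 scale, hepatocytes by 1.21 (SE 0.134, limma adjusted p = 4.91e-06) and 1-day HSC by 1.04 (SE 0.150, limma adjusted p = 0.000123). The last difference lay close to the minimum of 1: it was 0.91 without LSEC replicate 1, 0.99 without LSEC replicate 2 and 0.94 without 1-day HSC replicate 1, none called. Multimerin-2 itself, Mmrn2, read 163, 180.3 and 135 on the Kupffer cell arrays, 5306, 5281 and 4596 on the LSEC arrays, 741 and 616 on the 1-day HSC arrays and 125, 162 and 166 on the hepatocyte arrays, so that the receptor and its ligand gene were both highest in LSEC.

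The signalling receptors Clec7a, Clec12a and Clec4n followed another order, with Kupffer cells highest, 1-day HSC next, and LSEC and hepatocytes low. Clec7a (probe set 10548375), the gene of the beta-glucan receptor Dectin-1, read 3536, 3018 and 3445 on the Kupffer cell arrays, 241, 213 and 239 on the LSEC arrays, 712 and 885 on the 1-day HSC arrays, 317 in 7-day HSC, 374 in 14-day HSC and 134, 207 and 171 on the hepatocyte arrays. The Kupffer cell, 1-day HSC and LSEC ranges did not overlap, and each later HSC array lay above every LSEC array. The mean was 3333 ± 277 in Kupffer cells and 231 ± 15.8 in LSEC (SD, n = 3 each), a log2 difference of 3.44 (SE 0.116, limma adjusted p = 6.68e-11). Kupffer cells exceeded 1-day HSC by 1.96 on the log2 scale, while LSEC were lower than 1-day HSC by a log2 difference of -1.48 (SE 0.129, limma adjusted p = 1.81e-06). The log2 difference of 1-day HSC from hepatocytes was 1.80 (SE 0.129, limma adjusted p = 1.18e-07), and that of LSEC from hepatocytes was 0.32 and was not called.

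Clec12a (probe set 10542164), an inhibitory receptor of myeloid cells, read 4898, 4875 and 4602 on the Kupffer cell arrays, 65.8, 84.1 and 64.9 on the LSEC arrays, 246 and 383 on the 1-day HSC arrays, 131 in 7-day HSC, 178 in 14-day HSC and 74.8, 81.0 and 135 on the hepatocyte arrays. LSEC and hepatocyte readings lay under the olfactory receptor 95th percentile and overlapped, and the 1-day HSC readings lay above both. The mean was 4792 ± 164 in Kupffer cells and 71.6 ± 10.8 in LSEC (SD, n = 3 each), a log2 difference of 4.98 (SE 0.140, limma adjusted p = 1.31e-11). It was 3.64 against 1-day HSC and 4.78 against hepatocytes, and -1.35 for LSEC against 1-day HSC. 1-day HSC exceeded hepatocytes by a log2 difference of 1.14 (SE 0.157, limma adjusted p = 3.97e-05). Without 1-day HSC replicate 2 that difference was 0.89 and was not called.

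Clec4n (probe set 10541605), the gene of the alpha-mannan receptor Dectin-2, read 3007, 1839 and 2120.4 on the Kupffer cell arrays, 82.2, 70.4 and 82.4 on the LSEC arrays, 424 and 492 on the 1-day HSC arrays, 56.0 in 7-day HSC, 110.4 in 14-day HSC and 49.5, 59.7 and 49.3 on the hepatocyte arrays. Kupffer replicate 1 was the highest, and the lowest Kupffer cell array still lay above both 1-day HSC arrays. LSEC, hepatocyte and later HSC arrays lay under the olfactory receptor 95th percentile. The mean was 2322 ± 609 in Kupffer cells and 78.3 ± 6.83 in LSEC (SD, n = 3 each), a log2 difference of 3.87 (SE 0.140, limma adjusted p = 1.35e-10), and Kupffer cells exceeded 1-day HSC by 2.13. LSEC were lower than 1-day HSC by a log2 difference of -1.74, and 1-day HSC exceeded hepatocytes by 1.99 (SE 0.157, limma adjusted p = 2.79e-07).

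Clec4e (probe set 10547664), the gene of the inducible receptor Mincle, read 112, 101 and 140.4 on the Kupffer cell arrays, 63.6, 83.7 and 154 on the LSEC arrays, 132 and 149 on the 1-day HSC arrays, 53.6 in 7-day HSC, 86.7 in 14-day HSC and 109, 93.3 and 125 on the hepatocyte arrays. Only LSEC replicate 3 exceeded the olfactory receptor 95th percentile, no array exceeded the pooled median, and the gene was not tested. Its group means were 118 ± 20.2 in Kupffer cells, 100.5 ± 47.5 in LSEC and 109 ± 16.0 in hepatocytes (SD, n = 3 each), with overlapping ranges.

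Counted by comparison, 7 of the 9 tested members were called higher and 1, Clec14a, lower in Kupffer cells than in LSEC, where 9.54% of all genes tested were called higher and 10.3% lower, and Clec4g was not called. Kupffer cells exceeded 1-day HSC for 8 of 9 (all genes 11.7% higher and 12.9% lower) and exceeded hepatocytes for 8 of 9 (all genes 13.7% higher and 12% lower), with Clec14a not called in either. LSEC split the group against 1-day HSC: 4 members, Clec4g, Clec1b, Mrc1 and Clec14a, were called higher, and 3, Clec7a, Clec12a and Clec4n, lower, where 5.24% of all genes were called higher and 5.61% lower. The same 4 genes were called higher in LSEC than in hepatocytes (all genes 12.5% higher and 10% lower), and the same 3 were called higher in 1-day HSC than in hepatocytes (all genes 12.3% higher and 10.1% lower). These comparisons share arrays, so their counts are not independent. The median log2 difference over the 9 tested members was 1.98 for Kupffer cells against LSEC, beside -0.05 over all genes tested, and 0.32 for LSEC against hepatocytes, beside 0.10.

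**Figure D2:**
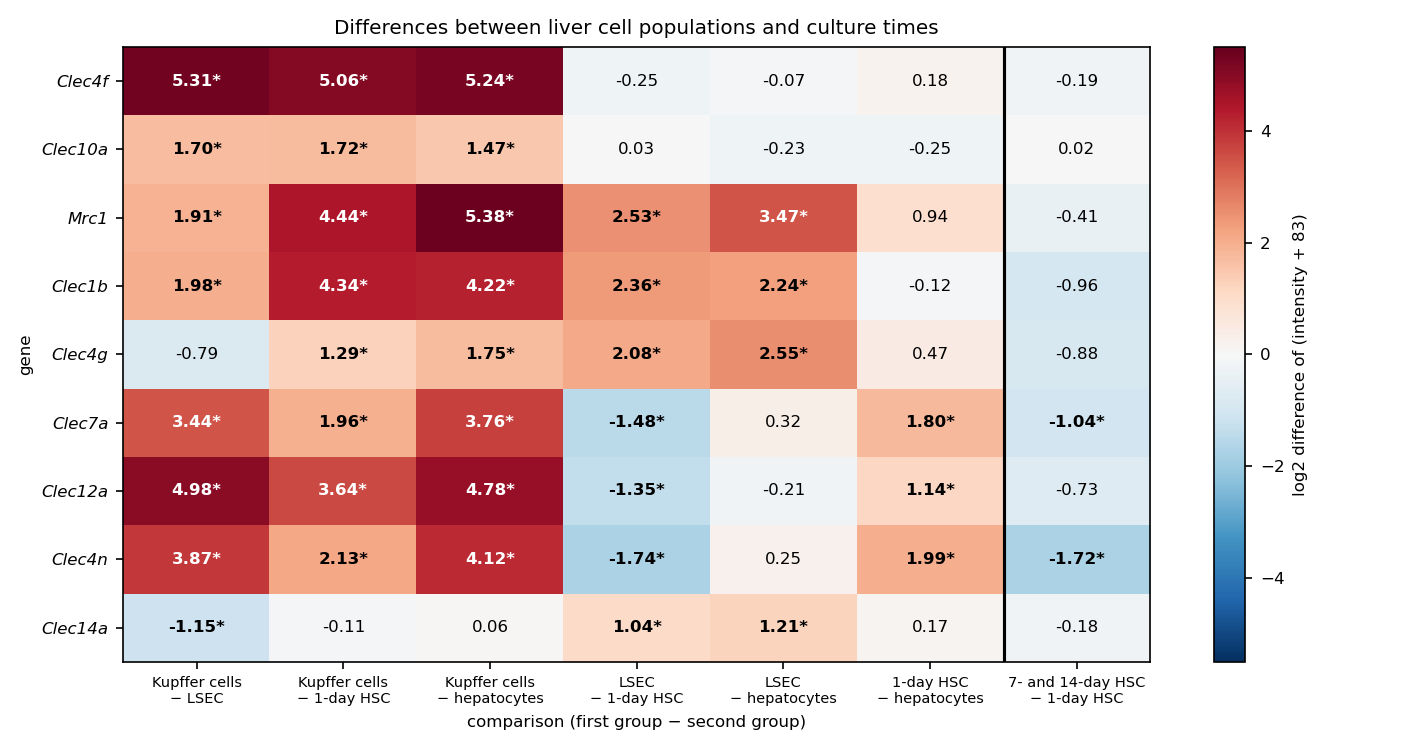
Log2 difference of (intensity + 83) for the 9 tested lectin receptor genes in the 6 population comparisons and in the culture comparison at the right of the line, first group minus second group; bold values with an asterisk were called. The columns for Kupffer cells are red for 8 genes in 2 comparisons, and LSEC against 1-day HSC shows 4 called higher and 3 called lower.

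The lectin readings on the HSC arrays were set beside those of the Kupffer cell markers. As a share of the Kupffer cell mean, the 1-day HSC mean was 24.0% for Clec7a, 19.7% for Clec4n, 14.5% for Clec10a, 6.57% for Clec12a, 3.77% for Clec1b, 3.60% for Mrc1 and 2.22% for Clec4f. The 12 Kupffer cell markers had a median share of 5.42% and a highest share of 19.1%, that of Cd68. The mean shares of Clec7a and Clec4n thus lay above those of all 12 markers, and that of Clec12a above their median. By array, Clec4n had 18.2 and 21.2% and Cd68 17.2 and 21.0%, which overlapped, while Clec7a had 21.4 and 26.5%. The HSC readings behind the share of Clec10a were under the olfactory receptor 95th percentile. Readings of Clec4f and Clec1b in 1-day HSC overlapped those in hepatocytes, whose shares were 1.88% and 4.14%. Hepatocyte shares exceeded 1-day HSC shares for the markers Timd4, Marco, Cd163, Nr1h3 and Cd68, and not for the other markers. The summed intensity of the 12 markers was 94747 to 97195 on the Kupffer cell arrays and 5752 to 7907 on the 1-day HSC arrays. It was 3600.4 in 7-day HSC and 4131 in 14-day HSC. On the LSEC arrays it was 5535 to 7218 and on the hepatocyte arrays 7209 to 8250, so the sum did not set 1-day HSC apart. By gene, 4 of the 12 were called higher and 1 lower in 1-day HSC than in hepatocytes. Of the 12, 3 were at or below the olfactory receptor 95th percentile on both 1-day HSC arrays. Set against the LSEC mean, the 1-day HSC share was 18.8% for Clec4g, 14.8% for Clec1b and 13.2% for Mrc1, and the 15 LSEC markers had a median share of 14.9% with a range of 6.16 to 81.0%. In these bulk samples, fewer cells of a type and less RNA per cell cannot be told apart, and the part of Kupffer cells or LSEC in the HSC readings was not tested.

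**Figure D3:**
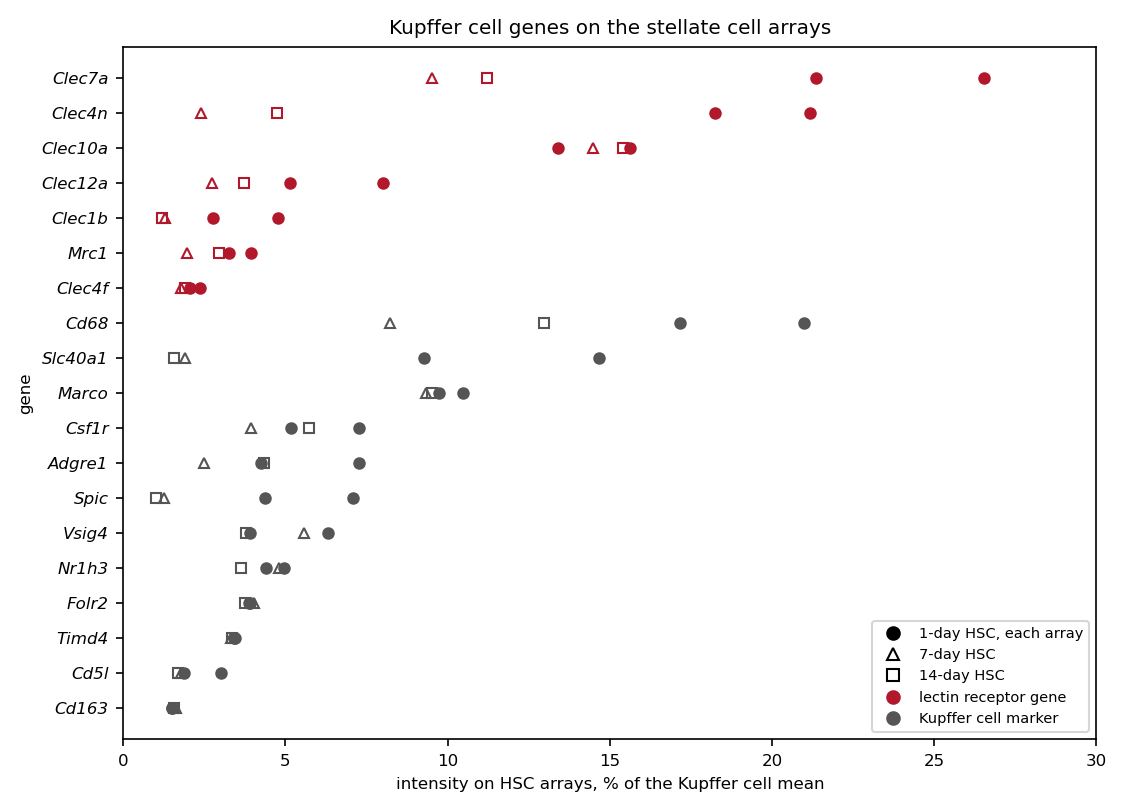
Intensity on the HSC arrays as a percentage of the Kupffer cell mean, for 7 lectin receptor genes (red) and 12 Kupffer cell markers (grey), with a filled point for each 1-day array, an open triangle for 7-day and an open square for 14-day HSC. Clec7a and Clec4n have the highest 1-day means, at 24.0% and 19.7%, beside 19.1% for the marker Cd68, whose points overlap those of Clec4n.

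The culture comparison asked how HSC kept for 7 or 14 days differed from HSC kept for 1 day, with the single arrays of the longer times merged. Of the 9 tested members, 2 fell, Clec7a and Clec4n, and the other 7 were not called, beside 4.27% of the 12368 genes tested that fell and 5.52% that rose. Clec4n read 424 and 492 after 1 day, 56.0 after 7 days and 110.4 after 14 days, a log2 difference of -1.72 (SE 0.193, limma adjusted p = 1.90e-05). Both later readings were under the olfactory receptor 95th percentile. Clec7a read 712 and 885 after 1 day, 317 after 7 days and 374 after 14 days, a log2 difference of -1.04 (SE 0.143, limma adjusted p = 9.28e-05), and remained above the pooled median. It missed the minimum difference of 1 without 1-day HSC replicate 2 (-0.90), without the 7-day array (-0.94) and with the pooled median as added constant (-0.84).

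Smaller differences were measured for the other members. Clec12a differed on the log2 scale by -0.73 (SE 0.177, limma adjusted p = 0.00493) and Clec1b by -0.96 (SE 0.259, limma adjusted p = 0.0093), both under the minimum of 1, and Clec1b was called without 1-day HSC replicate 1 (-1.24). Clec4g had a log2 difference of -0.88 (SE 0.413, limma adjusted p = 0.104), and Mrc1, Clec4f, Clec14a and Clec10a had -0.41, -0.19, -0.18 and 0.02. Both later arrays lay below both 1-day arrays for 9 of the 10 members, all except Clec10a, and for 32.4% of all 19537 genes. Among the 9 tested members this held for 8, and among the genes tested for 41.3%. The members were measured beside marker genes of the other cell types: 10 of the 15 LSEC markers and 2 of the 12 Kupffer cell markers were called lower, and 7 of the 10 hepatocyte markers. The median 14-day share of the Kupffer cell mean was 3.69% over the 12 markers, and it was 11.2% for Clec7a and 4.75% for Clec4n. The part of other cells in the member readings was not tested. The spread in this fit came from all groups, since the longer times had 1 array each.

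Some relatives of the members rose in culture, where 5.52% of all genes tested rose and 4.27% fell. Of 13 tested relatives of the Dectin-1 and Dectin-2 families, 1 rose and 2 fell. In the asialoglycoprotein and DC-SIGN families 1 of 5 tested rose. Among the 3 thrombomodulin-like relatives, 1 rose and 1 fell. Olr1, the gene of the oxidised-LDL receptor next to Clec7a, read 1372 and 1301 after 1 day, 4809 after 7 days and 4964 after 14 days, a log2 difference of 1.81 (SE 0.201, limma adjusted p = 1.81e-05). Of the mannose receptor family, 2 of the 2 tested relatives rose: Mrc2 (Endo180, a collagen uptake receptor) read 261 and 251 after 1 day, 1452 after 7 days and 2169 after 14 days, a log2 difference of 2.46 (SE 0.149, limma adjusted p = 9.80e-08), and Pla2r1, the phospholipase A2 receptor gene, rose by 1.11 on the same scale. Mrc1 differed by -0.41 (log2) over the same arrays and was not called. Colec12, a scavenger receptor with a collagen stalk, rose by a log2 difference of 1.79 (SE 0.282, limma adjusted p = 0.000261), and Cd248 (endosialin), a thrombomodulin-like lectin of pericytes and fibroblasts, by 1.10. On the log2 scale, its endothelial relative Cd93 fell by 2.73, and Clec2d and Clec4d fell by 1.02 and 1.04. With the pooled median as added constant, Clec2d (-0.76), Clec4d (-0.74), Pla2r1 (0.90) and Cd248 (0.90) were not called. Without the 7-day array, Clec2d (-0.66) and Clec4d (-0.70) were not called. Clec2d also missed the minimum with quantile normalization (-0.998). Without 1-day HSC replicate 1, Clec2d (-0.994) and Pla2r1 (0.95) were not called, nor was Clec4d without replicate 2 (-0.89).

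**Figure D4:**
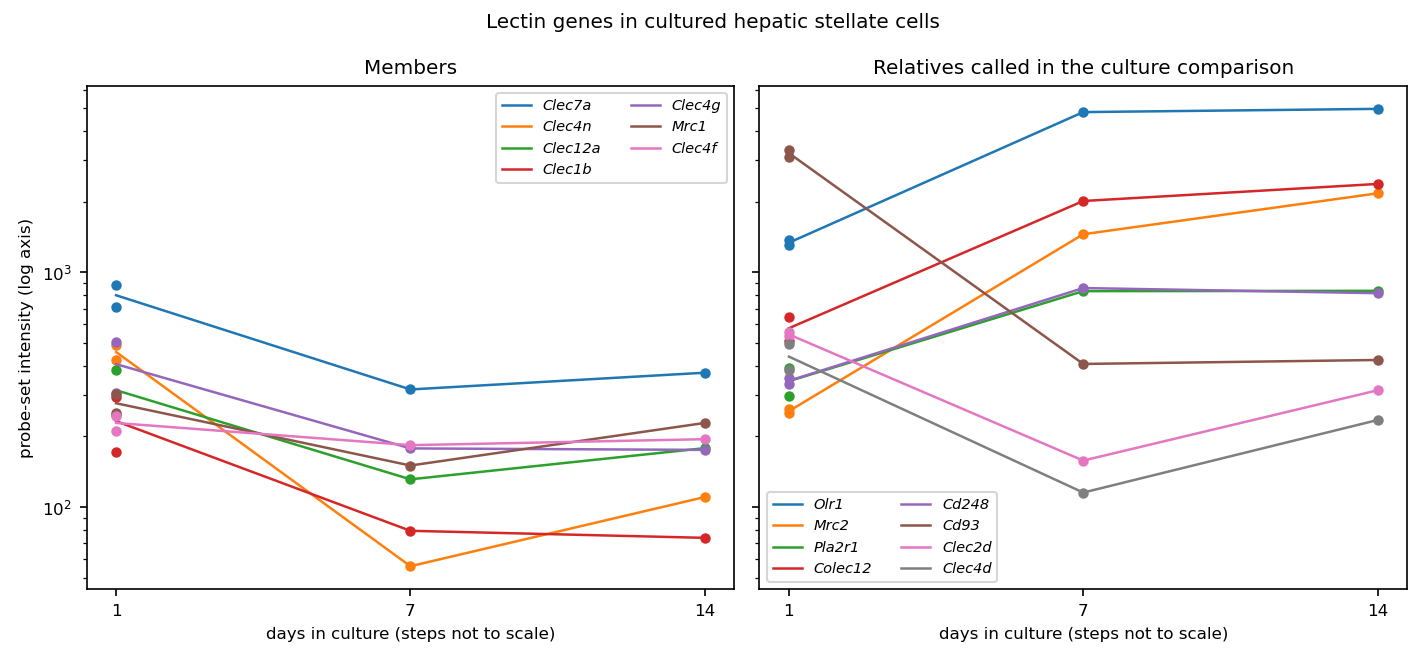
Probe-set intensity (log axis) of 7 lectin receptor genes (left) and of 8 relatives called in the culture comparison (right) in HSC after 1, 7 and 14 days, with lines through the day means; each later day is 1 array. Both later arrays lay below both 1-day arrays for every member except Clec10a, and only Clec7a and Clec4n were called lower. Olr1 reads 4964 and Mrc2 2169 after 14 days.

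One LSEC array stood apart for the members that were high in LSEC. LSEC replicate 3, as a share of the mean of the other two LSEC arrays, read 34.1% for Clec4g, 46.3% for Mrc1, 52.5% for Clec1b and 61.1% for Clec14a, and 108% for Clec4f and 105% for Clec7a, which were low in LSEC. Of the 15 LSEC markers, 14 were lower on it, with a median share of 67.4% and a range of 39.1 to 101%, Kdr being lowest and Cdh5 highest, both named after their values were seen. Relatives chosen after their values were seen went both ways, with 30.2% for Clec1a, 47.9% for Clec9a and 88.4% for Cd93, and 159.9% for Olr1 and 175% for Thbd. The calls of Mrc1, Clec1b and Clec14a in LSEC were made without that array too, and Clec4g changed its call against Kupffer cells as given above.

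Across the 13 arrays, Pearson's r on the log2 scale is given as a description, since the points share arrays and come from few cell types. Clec7a, Clec12a and Clec4n had r between 0.97 and 0.99 with each other, Mrc1 and Clec1b had 0.96, and Clec4f had 0.99 with Clec10a. Clec12a was as near to Clec4f (0.98) as to Clec7a (0.97), and had 0.95 with Clec10a, so that r did not set these genes apart as the order of LSEC and HSC did. Clec4g was nearest to Mrc1 (0.81), Clec1b (0.80) and Clec14a (0.79), and Clec14a had negative values with Clec4f (-0.29) and Clec12a (-0.36). Among all other tested genes, the 3 with the highest r were Btk (r = 0.999), Themis2 (r = 0.999) and Tifab (r = 0.999) for Clec4f, with Btk being a kinase of myeloid and B cells, and Fyb (r = 0.997), Csf1r (r = 0.996) and Otulinl (r = 0.996) for Clec12a, with Csf1r being the macrophage growth factor receptor. They were Clec9a (r = 0.991), Tspan15 (r = 0.988) and Tanc2 (r = 0.987) for Clec1b, Rufy3 (r = 0.994), Slfn5 (r = 0.989) and Oas1a (r = 0.988) for Mrc1, and Dnajb13 (r = 0.995), Cxcl13 (r = 0.995) and Trpm2 (r = 0.994) for Clec10a. Clec7a and Clec4n had Ms4a7 and Ms4a6d, membrane genes of macrophages, in common among their nearest genes (Ms4a6d (r = 0.991) for Clec7a, Ms4a7 (r = 0.995) for Clec4n), followed by Nckap1l (r = 0.989) for Clec7a and A530064D06Rik (r = 0.987) for Clec4n. For Clec14a the nearest were St6galnac3 (r = 0.993), Pcdh17 (r = 0.991) and Gpihbp1 (r = 0.990), the last being the lipoprotein lipase carrier of capillaries. For Clec4g they were Ripply3 (r = 0.964), Mfng (r = 0.964) and Mbd4 (r = 0.961).

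Several members are neighbours on mouse chromosome 6 in RefSeq's gene order, and neighbouring genes did not share one pattern. These neighbours were picked by position, and their values had been seen before. In the run Clec12a, Clec12b, Clec1b, Clec9a, Clec1a, Clec7a and Olr1, Kupffer cells were highest for Clec12a, Clec1b, Clec9a and Clec7a, LSEC for Clec1a, and 14-day HSC for Olr1, while Clec12b did not pass the filter. Clec9a, a receptor for exposed actin known from cross-presenting dendritic cells, lies next to Clec1b and was also its nearest gene by correlation. It read 3066, 2797 and 2224 on the Kupffer cell arrays, 600.1, 1025 and 389 on the LSEC arrays, 84.0 and 115 on the 1-day HSC arrays and 139, 114 and 158 on the hepatocyte arrays. Of the 4 tested dendritic cell markers, 2 were called higher in Kupffer cells than in LSEC, Clec9a itself and Batf3, a transcription factor gene of such cells. Batf3 read 969, 907 and 875 on the Kupffer cell arrays and 243, 219 and 239.6 on the LSEC arrays, a log2 difference of 1.66, and the log2 difference of Ccr7, 0.76, was under the minimum of 1. Both were named after their values were seen, as were the next. The other tested marker, Zbtb46, read lower in Kupffer cells than in LSEC and was not called. Its readings were 240, 213 and 184 on the Kupffer cell arrays and 360, 369 and 331 on the LSEC arrays. Xcr1 read 146, 169.6 and 157 on the Kupffer cell arrays and 88.8, 88.5 and 83.8 on the LSEC arrays. Flt3 read 118, 114 and 115 on the Kupffer cell arrays and 127, 103 and 106 on the LSEC arrays, all under the olfactory receptor 95th percentile. The summed intensity of the 9 dendritic cell markers, Clec9a included, was 4238 to 5339 on the Kupffer cell arrays and 1667 to 2268 on the LSEC arrays, and the part of dendritic cells in the lectin readings was not tested. Clec1a, between Clec9a and Clec7a, read 149.9, 169 and 138 on the Kupffer cell arrays, 1254, 1003 and 341 on the LSEC arrays and 80.0, 94.1 and 85.9 on the hepatocyte arrays, a log2 difference of -1.86 (SE 0.305, limma adjusted p = 0.000169) between Kupffer cells and LSEC.

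In the run of Dectin-2 family genes from Clec4a1 to Clec4e, the group means of Clec4a1, Clec4a3, Clec4a2 and Clec4n were highest in Kupffer cells, and that of Clec4d, towards the far end, in 1-day HSC. Clec4a1 read 4185, 3314 and 4155 on the Kupffer cell arrays, 64.1, 80.3 and 54.8 on the LSEC arrays and 117 and 178 on the 1-day HSC arrays, a log2 difference of 4.73 (SE 0.123, limma adjusted p = 7.22e-12) from LSEC. Clec4d, the gene of a Mincle partner, read 379, 305 and 510.4 on the Kupffer cell arrays and 169.8, 179 and 403 on the LSEC arrays, a log2 difference of 0.58 (SE 0.239, limma adjusted p = 0.0522) that was not called, and its 1-day HSC readings of 382 and 493 overlapped those of Kupffer cells. Clec4a4, Clec4b1, Clec4b2 and Clec4e did not pass the filter. Next to Clec4f lies Cd207 (langerin), which read 1803, 2354 and 1903 on the Kupffer cell arrays, 106, 99.2 and 105 on the LSEC arrays and 96.5, 95.2 and 112 on the hepatocyte arrays, a log2 difference of 3.49 (SE 0.0941, limma adjusted p = 9.46e-12) from LSEC. Both genes of this pair were thus high on the Kupffer cell arrays alone. Genes of such families are similar in sequence, and cross-hybridisation between them was not tested.

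**Figure D5:**
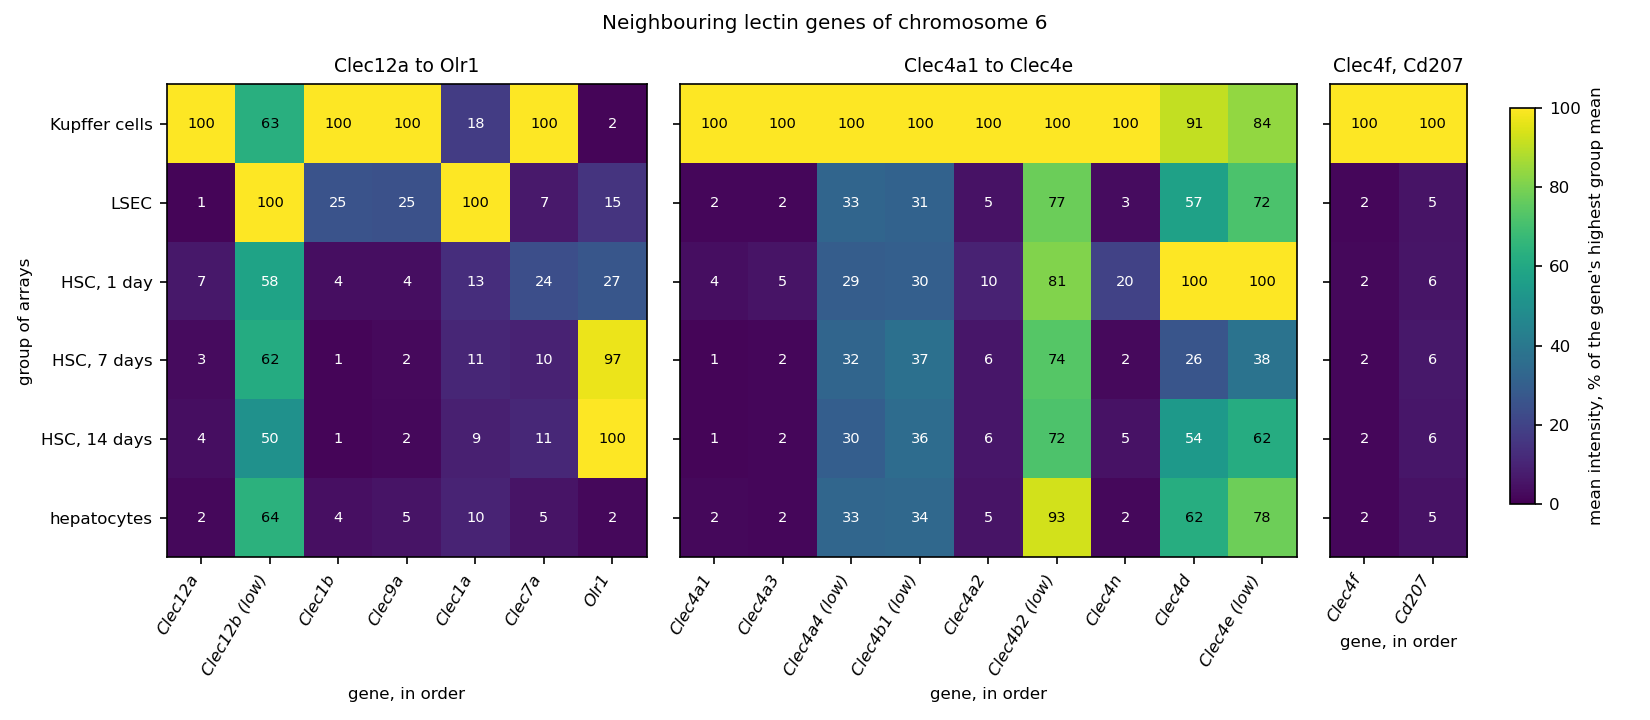
Mean intensity of each group as a percentage of the gene's highest group mean, for neighbouring lectin genes of chromosome 6 in gene order; genes marked low did not pass the filter. Kupffer cells hold the highest mean for Clec12a, Clec1b, Clec9a and Clec7a, LSEC for Clec1a and 14-day HSC for Olr1, and Cd207 reads 5.11% of its Kupffer cell mean in LSEC.

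The wider lectin families were unevenly measured. Of 24 relatives of the Dectin-1 and Dectin-2 families, 13 were tested, and 7 were called higher and 2 lower in Kupffer cells than in LSEC. Of all genes tested there, 9.54% were called higher and 10.3% lower. The largest called log2 differences were 4.73 for Clec4a1, 4.70 for Clec4a3, 4.46 for Cd72 and 2.91 for Clec4a2, while Clec2d at 0.34 was not called. The median log2 difference was 1.67 over their 13 tested members and -0.05 over all genes tested. Of 15 relatives in the asialoglycoprotein and DC-SIGN families, 5 were tested, and 2 were called higher and 2 lower in Kupffer cells than in hepatocytes. Of all genes tested there, 13.7% were called higher and 12% lower. On the log2 scale, Cd207 and Cd209f were higher by 3.51 and 1.60, and the subunits of the hepatocyte asialoglycoprotein receptor, Asgr1 and Asgr2, were lower, at -3.37 and -3.32. Colec12 at 0.71 was not called. In this comparison the median log2 difference was 0.71 over their 5 tested members and -0.02 over all genes tested. Asgr1 read 140.0, 127 and 139 on the Kupffer cell arrays and 1947, 1946 and 2708 on the hepatocyte arrays. The galactose-type lectin genes were thus divided by cell type, Clec4f and Clec10a being high in Kupffer cells and Asgr1 and Asgr2 in hepatocytes.

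The thrombomodulin-like relatives of Clec14a were called higher in LSEC than in hepatocytes for 2 of 3, beside 12.5% of all genes. The log2 differences were 4.21 for Cd93, 2.37 for thrombomodulin (Thbd) and -0.20 for Cd248, which was not called. Cd93 read 206, 179 and 148 on the Kupffer cell arrays, 12760.1, 12338 and 11091 on the LSEC arrays, 3321 and 3109.6 on the 1-day HSC arrays and 602, 431 and 712 on the hepatocyte arrays, highest in LSEC. Thbd was highest in HSC, with 427, 266 and 269 on the Kupffer cell arrays, 1168, 1845 and 2636 on the LSEC arrays, 6081 and 5103 on the 1-day HSC arrays and 242, 212 and 416 on the hepatocyte arrays, and was called lower in LSEC than in 1-day HSC, at a log2 difference of -1.60 (SE 0.296, limma adjusted p = 0.000832). Against hepatocytes, their median log2 difference was 2.37 over their 3 tested members and 0.10 over all genes tested. Of 9 soluble collectins and selectins, 6 were tested. In 1-day HSC relative to hepatocytes, Colec11 and Colec10 were higher by log2 differences of 1.18 and 1.08, and the mannose-binding lectins Mbl2 and Mbl1 were lower, at -2.31 and -1.90, while Sftpa1 (-0.24) and Sele (-0.02) were not called. Their median log2 difference was -0.13 over their 6 tested members and 0.08 over all genes tested.

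The signalling partners of these receptors were mostly higher in Kupffer cells. Of 29 listed genes of adaptors, Syk and Card9 signalling and its outputs, 24 were tested, and 16 were called higher in Kupffer cells than in LSEC and the other 8 were not called. In that comparison 9.54% of all genes were called higher. The median log2 difference was 1.86 over their 24 tested members and -0.05 over all genes tested. The adaptor gene Tyrobp read 8464, 9135 and 8398 on the Kupffer cell arrays and 247, 258 and 187 on the LSEC arrays, a log2 difference of 4.81 (SE 0.127, limma adjusted p = 8.17e-12). The inflammatory cytokine gene Il1b differed by a log2 value of 4.29, the exchange factor gene Vav1 by 4.11 and Syk by 3.92, while Nfatc1 at 0.69 and Vav3 at -0.67 were under the minimum. Of the same 24 genes, 4 were called higher in 1-day HSC than in hepatocytes and the other 20 were not called, beside 12.3% of all genes called higher. Their median log2 difference there was 0.27 over their 24 tested members and 0.08 over all genes tested. On the log2 scale the 4 were Fcer1g, the Fc receptor gamma chain used by Dectin-2, at 1.82, Lcp2 at 1.65, Tyrobp at 1.64 and Inpp5d at 1.23. Fcer1g, Lcp2 and Inpp5d read higher on the LSEC arrays than on the 1-day HSC arrays, and Tyrobp read lower. Fcer1g read 2518, 2353 and 2290 on the LSEC arrays and 1352 and 1622 on the 1-day HSC arrays. In LSEC relative to hepatocytes, 5 of the 24 were called higher and 1 lower, beside 12.5% of all genes called higher. In culture 2 of the 24 fell on the log2 scale, Cxcl2 by 3.98 and Lcp2 by 1.27, beside 4.27% of all genes that fell.

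A list of protein ligand genes had a different distribution. It also held Cd37, Cd63 and Tspan32, which encode tetraspanin membrane proteins and not ligands, so its counts and medians are not of ligands alone. Of 13 listed, 10 were tested, and 4 were called higher in LSEC than in hepatocytes and the other 6 were not called, beside 12.5% of all genes called higher. On the log2 scale the 4 were Mmrn2 at 4.46, the intermediate filament gene Vim at 4.42, Hspg2 at 3.23 and Cd63 at 1.26. Their median log2 difference was 0.98 over their 10 tested members and 0.10 over all genes tested. In 1-day HSC relative to hepatocytes, 7 of 10 were called higher, beside 12.3% of all genes. Among the 7 were, on the log2 scale, Vim at 4.53, Cd44 at 3.85, Pdpn at 3.17 and Hspg2 at 2.29. Cd37 (0.67) and Lgals9 (-0.52) were not called. The median log2 difference was 1.46 over their 10 tested members and 0.08 over all genes tested. Podoplanin (Pdpn), the ligand of CLEC-2, read 201, 187 and 189 on the Kupffer cell arrays, 315, 238 and 231 on the LSEC arrays, 2287 and 2176 on the 1-day HSC arrays, 3907 in 7-day HSC, 3244 in 14-day HSC and 164, 193 and 166 on the hepatocyte arrays. The receptor gene Clec1b was thus highest in Kupffer cells and its ligand gene highest in HSC.

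Markers of other cell types were read beside these results. The summed intensity of 9 neutrophil markers was 2060.5 to 2176 on the Kupffer cell arrays and 692 to 754 on the LSEC arrays, with 7 of 9 at or below the olfactory receptor 95th percentile on all Kupffer cell arrays. That of the 6 measured monocyte markers was 1340.2 to 2105 in Kupffer cells and 455 to 560.0 in LSEC, with 4 of 6 at or below that percentile on all Kupffer cell arrays. The only tested neutrophil marker, the G-CSF receptor gene Csf3r, was called higher in Kupffer cells, with 1492, 1392 and 1536 on the Kupffer cell arrays and 132, 112 and 123 on the LSEC arrays, while the neutrophil gene S100a8 read 72.3, 62.4 and 52.8 on the Kupffer cell arrays. Of the 3 tested monocyte markers, 2 were called higher in Kupffer cells than in LSEC, Plac8 with a log2 difference of 2.03 and Ms4a4c with 1.35. Plac8 read 1207, 1601 and 858 on the Kupffer cell arrays and 259, 276 and 161 on the LSEC arrays, and the monocyte gene Ccr2 read 61.9, 76.7 and 47.8 on the Kupffer cell arrays. These genes were named after their values were seen. Of the 5 measured B cell markers, 2 were tested and both were called higher in Kupffer cells than in LSEC, with summed intensities of 1772 to 3139.6 on the Kupffer cell arrays and 379.6 to 389.9 on the LSEC arrays. The part of these cell types in the lectin readings was not tested. Kupffer cells held 15 LSEC markers at a summed intensity of 23460.5 to 25485, against 64179 to 88532 in LSEC, and LSEC held the 12 Kupffer cell markers at 5535 to 7218, with Clec4f there between its lowest and highest hepatocyte readings. The LSEC markers contributed unevenly to the Kupffer cell sum. On the Kupffer cell arrays Cdh5 read 10040, 9723 and 9141 and Maf 6154, 6514.5 and 6627. Stab2 read 502, 413 and 362 there and Lyve1 347, 401 and 273. Of the 15, 12 were called lower in Kupffer cells than in LSEC, 1 was called higher and 2 were not called. The markers named here were chosen after their values were seen. The hepatocyte gene Alb, chosen likewise, read 8855 and 6285 on the HSC arrays after 1 day, 114 after 7 days and 113 after 14 days. It read 3374, 1027 and 2292 on the Kupffer cell arrays, while hepatocyte readings of the 9 tested members were at most 314.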

How the data were processed

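The intensity values, one per probe set and array, were used as the authors deposited them, on a linear scale. Per the submitters' processing notes, Affymetrix Expression Console and MAS5 5.0 were used. Not given in the sources used here were the role of each, the normalization and any genome build, so the summary method is uncertain. Of 25194 probe sets, 21181 carried 1 gene symbol in the platform annotation, 1379 several and 2634 none. 21097 matched RefSeq (GRCm38.p6) by Entrez identifier. A gene was represented by its single-symbol probe set with the highest mean. Intensities were taken as log2(intensity + 83), 83 being the pooled 20th percentile, and genes above 224.5, the pooled median, on at least 2 arrays were fitted in R 4.3.3 with limma 3.58.1 (lmFit and eBayes). The population fit used 11 arrays and 12081 genes (7 residual degrees of freedom, prior 4.87). The culture fit used 13 arrays and 12368 genes (8, prior 4.47), with the 7-day and 14-day arrays as 1 group. Tests were two-sided and adjusted by Benjamini-Hochberg within a comparison. Precision is limited by the number of arrays. The fit was tested on simulated data. The members, the gene lists and this design were chosen with earlier results of these data known. All members were named. From the lists, up to 4 called genes and up to 2 not called were named by size of difference, and for each tested member the 3 genes most alike by Pearson's r over 13 arrays. From each marker list the 2 genes with the highest mean were eligible. Of the listed genes, 15 entries had no single-symbol probe set and were not analysed here. Arrays were not paired by replicate number in the main fits, and whether equal numbers share an isolation is not known.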

Additional observations from a re-analysis of the deposited data

How the results depend on the processing

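The 46 member differences described were recomputed under other constants, filters, normalization, probe-set choice, variance model, array sets and with each replicate left out, 931 repeats in all. Of these, 908 kept their direction and side of the threshold, 16 were no longer called, 7 became called, and none changed direction. For the other listed genes that were called, 3651 of 3702 repeats kept both, 51 were no longer called and none changed direction. The count of members called in culture, 2 as reported, was 1 with the pooled median as added constant, 4 with a constant of 1, 1 without 1-day HSC replicate 2 and 1 without the 7-day array, and ranged from 1 to 3 over all arrays left out in turn. With a constant of 1, Clec12a and Clec1b (-1.54) passed as well. Leaving out each array gave 8 to 9 members called between Kupffer cells and LSEC, 7 to 8 between Kupffer cells and 1-day HSC, 8 between Kupffer cells and hepatocytes, 6 to 7 between LSEC and 1-day HSC, 4 between LSEC and hepatocytes and 2 to 4 between 1-day HSC and hepatocytes. Where this left 1 HSC array in a group, that array was assumed to vary like the other groups. With the pooled median as added constant, Clec14a was not called in its 3 comparisons (-0.77, 0.70 and 0.80), nor Clec12a for LSEC against 1-day HSC (-0.85) or 1-day HSC against hepatocytes (0.74), since a larger constant shrinks the differences of low genes. Mrc1 in 1-day HSC against hepatocytes was called with a constant of 1 (1.40) and without 1-day HSC replicate 1 (1.05). Arrays with the same replicate number did not deviate together (r from -0.111 to 0.110 over 15 pairs). With so few arrays in a group, this cannot exclude that they were paired. With the replicate number as a block the members called stayed at 8, 8, 8, 7, 4 and 3 in the 6 population comparisons. Quantile normalization moved the median difference of all genes by at most 0.051. Genes that read near the olfactory receptor level, such as Clec4e, have no measurable order between groups at this signal.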
